A study of Homo sapiens with 8 samples.

Results

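Control NS-SV-AC cells, an immortalised line described as human salivary gland acinar cells, were profiled after 24 h in culture and set against the same arm at 2, 6 and 12 h. The study holds 8 Affymetrix arrays, 4 from cells labelled BSA, the arm without cytokine, and 4 from cells given TNF-α at 20 ng/ml, with 1 array at each of 2, 6, 12 and 24 h in each arm. All 8 came from the same line, kept at 37 °C in 5% CO2, and 10 ng of total RNA was labelled per array by a kit that primes from the 3′ end of transcripts. A gene was counted when its 24 h value lay at least 1 log2 unit (2-fold) outside the range of the 3 earlier BSA arrays. Of 18239 genes, 466 (2.55%) met this, 245 above the range (1.34%) and 221 below it (1.21%). Quantile normalising the 4 BSA arrays again gave 190 above and 259 below. With no second 24 h array, a change of the cells with time and a feature of that array or dish cannot be told apart. Levels are log2 RMA values, each gene is read by its brightest probe set, and differences are 24 h minus the mean of the 3 earlier BSA arrays.

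When amino acids run short or the endoplasmic reticulum is strained, translation initiation is curbed and the transcription factor ATF4 is made, which induces genes for amino acid synthesis, uptake and tRNA charging. When sterols accumulate, the SREBP factors are held back and the enzymes of cholesterol and fatty acid synthesis are transcribed less. Inhibitor of DNA binding (ID) genes are read as targets of BMP signalling, and heat shock and metallothionein genes as sensors of unfolded proteins and of metals. These sentences are background, and none of these processes was measured here.

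The 24 h BSA array correlated with the earlier BSA arrays at r from 0.968 to 0.980 across genes, whereas these correlated with each other at 0.989 to 0.994. Genes are not independent replicates. On the 24 h BSA array the 3′ control probes of GAPDH read 0.21 above the 5′ probes, within the 0.20 to 0.37 of the earlier BSA arrays. For ACTB that gap was 3.47, above the 2.75 to 3.09 of the earlier arrays, the gap from 3′ to middle probes was 1.88 against 1.01 to 1.19, and the ACTB 3′ probes themselves read 10.64 against 12.16 to 12.24. The 24 h TNF-α array stood far apart, with a GAPDH gap of 6.28, a usual sign of degraded RNA. Of 19 measured acinar markers, 3 lay above the median of all genes, 5.10, on at least 1 BSA array, and the water channel AQP5 read 4.06, 4.02, 3.88 and 4.06 at the 4 times, below that median. Statherin, histatin 1 and mucin 7 had earlier means of 2.89 (STATH), 2.51 (HTN1) and 2.84 (MUC7), so the defining secretory markers of the labelled cell type were near the bottom of the scale. Of 13 ductal markers 2 did so, the simple epithelial keratin KRT18, which read 10.16, 10.33, 10.09 and 9.84, and the sodium channel subunit SCNN1A, with an earlier mean of 10.03. Of 13 basal markers 3 did so, and the keratin KRT14 read 3.92, 3.85, 3.73 and 3.75. None of the 10 endothelial markers and 1 of the 14 immune markers lay above that median on any BSA array. Of 12 fibroblast markers 5 did so, among them COL3A1, LUM and DCN (earlier means 9.27, 7.63 and 7.01), while COL1A1 (3.81) and COL1A2 (3.47) did not. At 24 h 0 members of the basal, fibroblast, endothelial and immune lists were counted, and 1 of the ductal list, SCNN1A, beside 2.55% of all genes.

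Which genes stood farthest outside the earlier range? GDF15, which encodes a stress-induced secreted factor, read 3.06, 3.12 and 2.99 at 2, 6 and 12 h and 7.49 at 24 h. It lay under the lower quartile of all genes, 3.69, on the earlier arrays and above the upper quartile, 7.30, on the last. DDIT3, encoding the stress transcription factor CHOP, read 4.94, 3.92 and 3.99 and then 8.04. FAM24B read 4.49, 4.55 and 4.44 and then 7.84. PABPC1L (6.38, 5.73, 6.48, then 9.08) and SLFN5 (3.50, 3.17, 3.56, then 6.16) followed, and SH3YL1, TUBE1, SLC22A15, TMEM200A and ANKRD29 came next, each 2.05 to 2.45 above its earlier mean. BEX2, LCA5, SPX, TRIB3 and AMN1 made up the 15 farthest above, with differences of 2.02 to 2.49.

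On the other side, KCNJ16, an inward rectifier potassium channel subunit, read 7.36, 6.94 and 7.32 and then 3.25. It went from a clear signal on the 3 earlier arrays to a level below that lower quartile. ID1, which blocks basic helix-loop-helix factors, read 8.97, 7.94, 7.33 and 4.06, and was already lower at 12 h than at 2 h. TMT1A read 9.59, 9.37 and 9.14 and then 6.24. BST2, the interferon-induced tetherin, read 8.19, 8.38 and 7.95 and then 5.30. The small nucleolar RNA SNORA6, the tubulin TUBB3, the mitotic kinesin KIF20A, the chemokine receptor CXCR4, the protease PRSS23 and ID2 were lower by 3.17, 2.82, 2.71, 2.92, 2.67 and 3.06 on the log2 scale. The keratin KRT8, the amino acid transporter SLC7A7, the transketolase gene TKT, the membrane skeleton gene EPB41L3 and INSIG1 completed the 15 farthest below, by 2.12 to 2.44. Across all counted genes the median distance from the range was 1.23 above and -1.25 below, and 7 genes above and 16 below lay at least 2 away. The counted genes nearest the limit were TP53BP1 (6.95 against an earlier highest value of 5.95) and OSBPL6 (7.30 against 6.30) above, and LPCAT1 (6.79 against an earlier lowest of 7.79) and LY6E (4.48 against 5.48) below. Just short of it were TMEM128 (8.23 against 7.24) and TMEFF1 (9.01 against 8.01) above, and PSMG4 (7.11 against 8.10) and ASF1B (4.65 against 5.64) below.

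**Figure D1:**
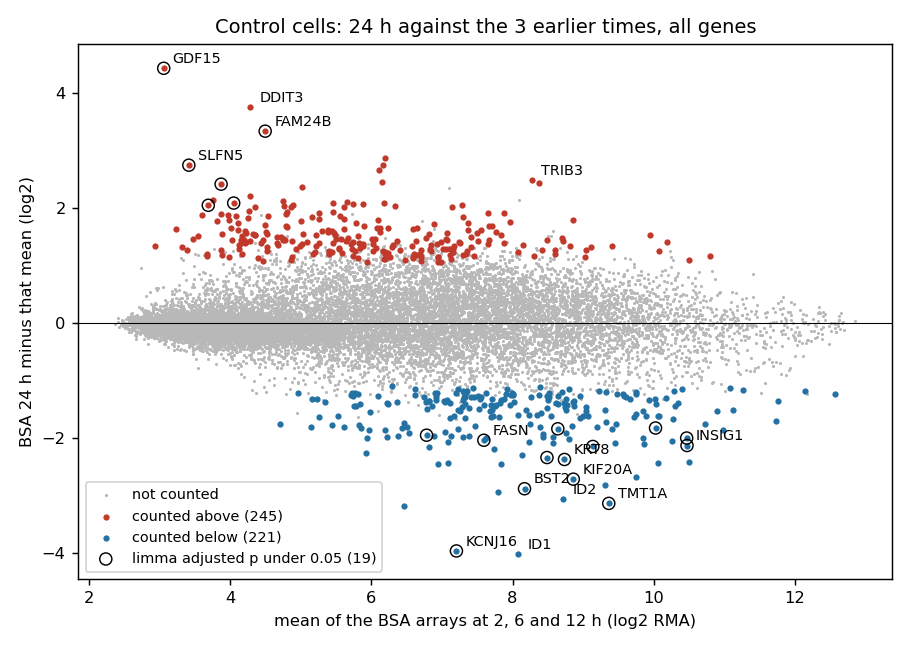
Difference between BSA at 24 h and the mean of BSA at 2, 6 and 12 h (y, log2) against that mean (x, log2 RMA) for 18239 genes. Red and blue points are the 245 and 221 counted genes, and circles mark the 19 with a limma adjusted p under 0.05. Genes counted above had a median earlier level of 5.76 and genes counted below 7.90, against 5.12 over all genes. The counting rule partly fixes this, because a gene near the bottom of the scale has little room to fall.

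The limma test set the 24 h array against the spread between the 3 earlier times, with 2 residual degrees of freedom, and assumes that the lone 24 h array varies like the others. It reads the same values as the rule that counted the genes, so it adds no independent support. At a Benjamini-Hochberg adjusted p under 0.05 it called 6 genes higher (0.0329%) and 13 lower (0.0713%), all 19 of them counted genes, and 3680 genes had an unadjusted p under 0.05. Among the genes called higher, GDF15 differed by 4.44 ± 0.13 and FAM24B by 3.34 ± 0.12. These SEs are limma's moderated ones, in which each gene's spread is drawn towards that of all genes. SLFN5, SH3YL1, ANKRD29 and TMEM200A were also called higher. At least 1 above the range lay 1 of 4 probe sets of SLFN5, 1 of 2 of TMEM200A and 3 of 4 of SH3YL1. ANKRD29 has 1 probe set. KCNJ16 differed by -3.96 ± 0.21 (limma adjusted p = 0.046). TMT1A, BST2, KIF20A, KRT8, EPB41L3, INSIG1 and FASN were also called lower, as were MSN (moesin, which ties actin to the membrane), ENO1 (the glycolytic enolase), AP1M2 (an epithelial clathrin adaptor subunit) and the near-identical VCX and VCX3A, whose probes may share signal. The other 447 counted genes did not pass, with adjusted p up to 0.23. The number called moved widely with the fit. Without the 2 h array or without the 12 h array limma called 0 genes (3196 and 2975 at an unadjusted p under 0.05), and without the 6 h array it called 554 higher and 401 lower. Under renewed quantile normalisation, or with each array centred on its median, 2 genes were higher and 0 lower. An exact permutation test of 1 array against 3 cannot give a p below 0.25 for any single gene.

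Genes of the amino acid and integrated stress response mostly lay higher at 24 h. Of 28 measured, 25 lay above the earlier range by any distance (30.0% of all genes did) and 0 below it, and 5 were counted above. The list's median difference was 0.95, against -0.02 over all genes, and 1 member, GDF15, passed limma. TRIB3, a pseudokinase induced by ATF4 and CHOP, read 8.90, 8.18, 7.73 and then 10.76. CTH, the enzyme that makes cysteine from cystathionine, read 7.12, 6.43, 4.93 and 8.91, so it had been declining before it was high. FGF21, a secreted stress hormone, read 4.05, 3.93, 3.46 and 5.59. ASNS, asparagine synthetase, read 10.50, 10.52, 9.71 and 11.41 and missed the limit, as did the cystine transporter SLC7A11 at 9.25, 7.83, 7.20 and 10.24. The list median itself was 7.78, 7.72, 7.22 and 8.67 on the 4 arrays, lowest at 12 h and highest at 24 h.

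The enzymes that charge tRNAs also lay higher. 11 of 12 aminoacyl-tRNA synthetases lay above the earlier range (30.0% of all genes did) and 1 below, with a median difference of 0.75. LARS1, for leucine, read 9.03, 8.56, 8.98 and 10.65, and IARS1, for isoleucine, read 10.91, 10.77, 10.73 and 11.97. LARS1 and IARS1 were counted, and all 4 probe sets of IARS1 lay at least 1 above the range. Neither passed limma (adjusted p = 0.057 for both). Of 17 genes of the unfolded protein response 11 lay above the range and 3 below, 0 were counted, and the median difference was 0.47. DNAJB9, an endoplasmic reticulum chaperone partner, read 7.57, 6.36, 6.74 and 8.53. The chaperone HSPA5 itself read 11.40 at 24 h, inside its earlier range.

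ATF4 with C/EBP partners binds a composite element, searched here as TGATGNAA on both strands within 250 bases upstream of the RefSeq start (GRCh38.p14). It was present in 323 of 14492 promoters (2.23%), and in 5 of the 34 amino acid response and synthetase genes with a promoter entry (14.7%). Among counted genes it was in 5 of 216 above (2.31%) and 0 of 175 below, so the counted genes as a whole held it about as often as all promoters. The 5 stretches from the lists that hold the element are shown, 5′ to 3′ on the gene's strand, with the element in capitals. A match is a description of letters and not of binding.
CHAC1 (chr15:40953236-40953295, plus strand): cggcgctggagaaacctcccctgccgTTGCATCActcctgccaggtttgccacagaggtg
ASNS (chr7:97872443-97872502, minus strand): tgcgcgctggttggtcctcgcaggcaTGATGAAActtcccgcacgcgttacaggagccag
FGF21 (chr19:48755444-48755503, plus strand): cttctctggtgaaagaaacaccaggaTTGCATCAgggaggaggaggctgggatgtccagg
AARS1 (chr16:70289660-70289719, minus strand): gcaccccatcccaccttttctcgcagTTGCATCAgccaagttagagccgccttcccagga
IARS1 (chr9:92293698-92293757, minus strand): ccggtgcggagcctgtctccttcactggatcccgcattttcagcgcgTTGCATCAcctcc
Of these 5, FGF21 and IARS1 were counted. CHAC1, a glutathione-degrading enzyme, read 6.29, 5.50, 5.39 and 6.77, and AARS1, the alanine enzyme, read 8.74, 8.79, 8.05 and 9.25, both above the earlier range by less than 1.

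Cholesterol synthesis genes were lower. Of 20 measured, 18 lay below the earlier range by any distance (35.6% of all genes did) and 1 above it, 7 were counted below, and the median difference was -0.99. INSIG1, which retains the SREBP complex in the endoplasmic reticulum and is itself an SREBP target, read 10.46, 10.51, 10.45 and then 8.35 and passed limma. All 3 of its probe sets lay at least 1 below the range. HMGCS1, the synthase before the rate-limiting step, read 10.13, 10.19, 10.49 and 8.60. The later enzymes EBP (9.65, 9.88, 9.63, then 8.10), NSDHL (8.71, 9.04, 9.14, then 7.32) and MSMO1 (10.93, 10.75, 11.02, then 9.38) had the same shape, flat or slightly higher up to 12 h and lowest at 24 h. DHCR7 and MVD were the other members counted. Of 15 fatty acid synthesis genes 10 lay below the range, 4 above it and 3 were counted below. FASN, the fatty acid synthase, read 7.53, 7.59, 7.67 and 5.56, a difference of -2.03 ± 0.13 (limma adjusted p = 0.046), and the desaturases FADS2 and SCD were lower by 1.49 and 1.15.

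The SREBP element with its best known spelling, TCACNCCAC, was in 1 of 18 cholesterol synthesis promoters (5.56%) and in 0.883% of all. The CCAAT box, bound by the NF-Y factor that works beside SREBP, was in 15 of the 18 (83.3%) against 34.6% of all promoters, 44.6% of genes counted below and 33.3% of genes counted above. It was in 4 of 14 fatty acid synthesis promoters (28.6%). Stretches from 4 counted cholesterol genes are shown with each CCAAT, or ATTGG on the other strand, in capitals.
HMGCS1 (chr5:43313448-43313577, minus strand): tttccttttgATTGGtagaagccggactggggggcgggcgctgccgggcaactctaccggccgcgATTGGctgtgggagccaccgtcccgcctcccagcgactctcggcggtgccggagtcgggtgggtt
MVD (chr16:88663131-88663260, minus strand): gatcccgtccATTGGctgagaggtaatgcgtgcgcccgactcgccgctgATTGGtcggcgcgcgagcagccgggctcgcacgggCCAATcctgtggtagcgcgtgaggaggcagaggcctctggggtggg
MSMO1 (chr4:165327474-165327603, plus strand): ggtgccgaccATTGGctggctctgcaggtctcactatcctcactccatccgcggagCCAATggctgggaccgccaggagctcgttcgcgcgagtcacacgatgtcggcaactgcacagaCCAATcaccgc
INSIG1 (chr7:155297698-155297827, plus strand): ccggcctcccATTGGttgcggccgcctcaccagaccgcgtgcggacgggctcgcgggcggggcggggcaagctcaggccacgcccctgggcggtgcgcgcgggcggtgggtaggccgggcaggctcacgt
HMGCS1 holds 2 boxes in this window, MVD 3 and INSIG1 1. The 250 bases before the MSMO1 start hold 4.

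**Figure D2:**
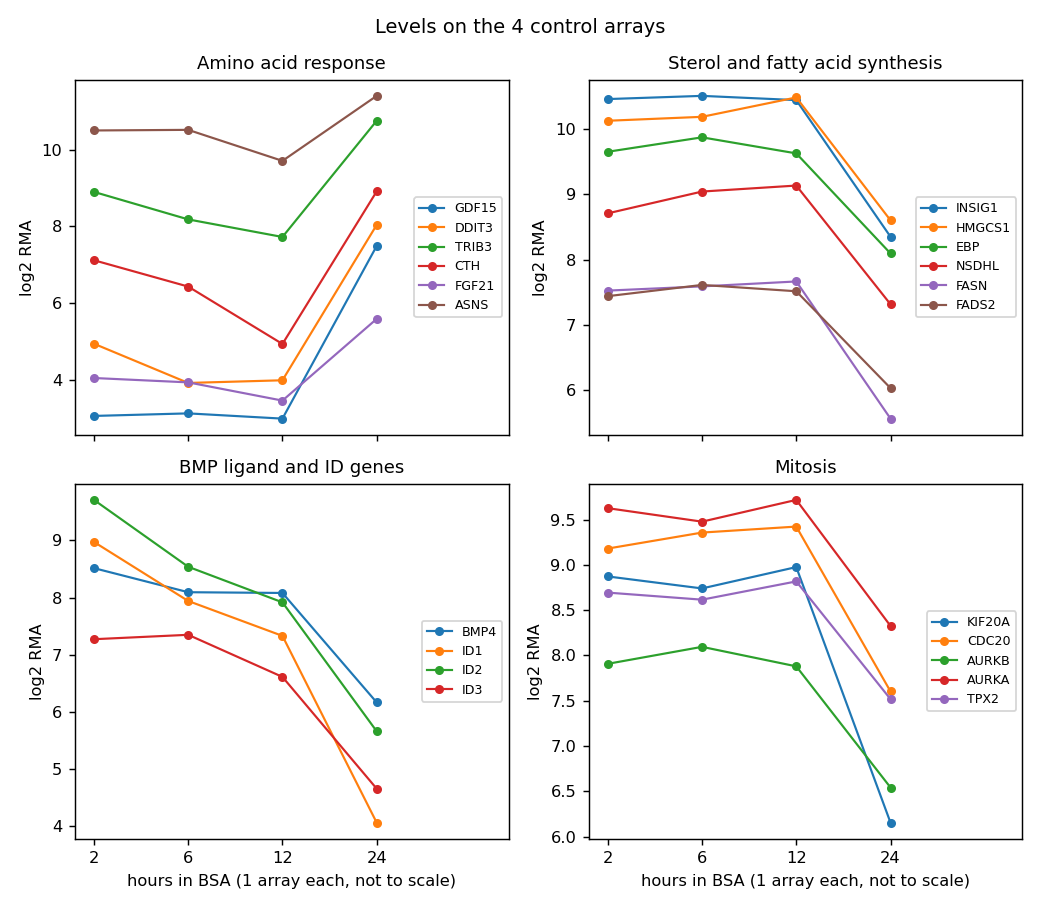
Level (y, log2 RMA) on the 4 BSA arrays at 2, 6, 12 and 24 h (x, evenly spaced, 1 array per time) for members of 4 gene groups. The stress response genes are highest at 24 h, for example GDF15 at 7.49, and the sterol, ID and mitotic genes are lowest there, for example INSIG1 at 8.35 and KIF20A at 6.15.

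BMP signalling genes lay mostly lower, by small amounts for most of the list. Of 16 measured, 13 lay below the earlier range (35.6% of all genes did), with a median difference of -0.16. BMP4 and its targets ID1, ID2 and ID3 were counted, beside 1.21% of all genes counted below. BMP4, a secreted ligand, read 8.52, 8.09, 8.08 and 6.17. ID2 read 9.71, 8.54, 7.92 and 5.66, and ID3 read 7.27, 7.35, 6.61 and 4.66. ID1 and ID2 were lower at each time than at the time before, and the step from 12 h to 24 h was the largest for both. All 3 probe sets of ID1 and of ID3 lay at least 1 below the range. In the TNF-α arm ID1 was already low at 2 h (6.51) and 6 h (4.42) and read 4.97 at 24 h. None of the 4 passed limma (adjusted p from 0.052 to 0.11).

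Mitotic genes lay mostly lower, while DNA replication genes lay on both sides. Of 29 mitosis genes 19 lay below the earlier range and 0 above, with a median difference of -0.55. The kinesin KIF20A read 8.87, 8.74, 8.97 and 6.15. CDC20, which activates the anaphase-promoting complex, read 9.18, 9.36, 9.42 and 7.60, and the kinases AURKB (7.91, 8.09, 7.88, then 6.54) and AURKA (9.63, 9.48, 9.72, then 8.33) and the spindle factor TPX2 (8.69, 8.62, 8.82, then 7.52) were also counted. Only KIF20A of these passed limma. Of 31 DNA replication genes 13 lay above the range, 10 below and 0 were counted, with a median difference of 0.08. Over all genes 30.0% lay above the range, 35.6% lay below it and 2.55% were counted, so the replication list was not far from all genes. MKI67, the proliferation antigen, read 8.02, 6.97, 7.72 and 7.39, inside its range, and so did the cell cycle inhibitor CDKN1A at 8.64, 8.69, 8.22 and 8.32. CCND1 read 8.35, 8.82, 8.75 and 7.99. In bulk RNA, fewer dividing cells and less RNA per cell cannot be told apart.

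The medians of the heat shock and metallothionein lists were lowest at 24 h. The heat shock median was 9.02, 9.27, 9.33 and 8.12 on the 4 arrays and the metallothionein median 7.29, 7.94, 7.43 and 5.54. HSPA1A, an inducible HSP70 gene, read 9.70, 10.46, 11.34 and 8.09, and its near-identical copy HSPA1B, whose probes may share signal, read 6.77, 7.92, 8.81 and 5.38. HSPB1 and DNAJB1 were also counted, beside 1.21% of all genes counted below. Of 16 heat shock genes 12 lay below the earlier range (35.6% of all genes did) and 0 above it, with a median difference of -0.95. All 9 metallothioneins measured lay below the range, with a median of -1.06, and their probes may share signal because the family is nearly identical in sequence. MT1E read 7.29, 7.94, 7.97 and 5.54, MT1X read 9.37, 10.14, 10.06 and 7.87, and MT2A read 12.38, 12.64, 12.71 and 11.34. TXNIP, which is induced by glucose, read 6.52, 7.03, 7.59 and 5.16. The glucose transporter SLC2A1 read 7.79, 8.44, 7.84 and 7.60. No member of either list passed limma.

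Several interferon-stimulated genes read higher at each time up to 12 h in the control arm and lay under their 2 h level at 24 h. IFIT1, an antiviral RNA sensor, read 6.60, 7.09, 7.58 and 5.02, IFIT2 read 4.95, 5.21, 6.16 and 3.68, and IFI44 read 5.10, 5.69, 6.68 and 4.05. Of 33 measured, 20 lay below the range (35.6% of all genes did) and 2 above. Counted below were 7 (5 with probe sets averaged), beside 1.21% of all genes, and the list's median difference was -0.41. In the TNF-α arm, by contrast, the median was 0.88, IFI44 read 5.37, 6.75, 8.40 and 8.85, and IFIT1 read 6.78, 8.22, 9.23 and 7.78. The BSA shift minus the TNF-α shift was -3.78 for IFI44 and -1.77 for IFIT1, each resting on 1 array per arm at 24 h. In the limma comparison of the arms described below, neither gene passed with the 4 means. Taken within each time, IFI44 passed and IFIT1 did not. BST2 went the same way in both arms, ending at 5.30 in BSA and 4.25 in TNF-α. CXCL8 stayed at the floor in BSA, at 3.40, 3.48, 3.44 and 3.37, and the NF-κB inhibitor gene NFKBIA read 7.79, 8.20, 7.64 and 6.96.

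A further set was high at 2 h, low at 6 and 12 h and high again at 24 h. EGR1, an immediate early gene, read 10.35, 5.35, 5.59 and 9.46 and was therefore not counted, and the TNF-α arm gave 9.33, 5.20, 5.15 and 8.62. DUSP6, the ERK phosphatase, read 7.59, 5.36, 5.36 and 8.77, and all 4 of its probe sets lay at least 1 above the range. GADD45A, a growth arrest gene, read 9.34, 7.91, 7.87 and 10.81. VEGFA read 9.36, 8.23, 8.12 and 10.18, short of the limit. Of 13 ERK feedback genes 3 were counted above, DUSP6, ETV5 and SPRED1 (2 with probe sets averaged), beside 1.34% of all genes. In that list 6 lay above the range and 1 below (30.0% and 35.6% of all genes did), and the median difference was 0.54. ETV5 (5.49, 6.55, 5.61, then 7.95) and SPRED1 (7.02, 7.42, 7.05, then 8.51) did not share that shape and were lowest at 2 h. JUN (7.28, 6.84, 6.45, then 7.28), MYC (11.04, 9.86, 9.56, then 9.82) and FOS (5.36, 5.13, 5.06, then 4.88) were not counted. The SD between the earlier times was 2.82 for EGR1 and 1.29 for DUSP6, and their limma adjusted p were 0.63 and 0.23.

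Among clock genes RORA (4.27, 3.98, 4.51, then 6.08), BMAL1 (6.08, 5.12, 6.46, then 7.59) and PER3 (5.54, 4.60, 4.95, then 6.58) were counted above. In each, 1 of 3 probe sets lay at least 1 above the range. By any distance, 3 probe sets of BMAL1, 2 of RORA and 1 of PER3 lay above it. When the probe sets of a gene were averaged, 0 of the 17 clock genes were counted. The list's median was -0.03 (0.04 with probe sets averaged), DBP read 6.26, 6.28, 5.65 and 5.98, and PER1 read 6.86, 6.64, 6.54 and 5.96. Glucocorticoid targets included 4 of 13 counted below, ZBTB16 (6.00, 5.95, 6.00, then 4.44), SCNN1A, FKBP5 and MT2A (2 with probe sets averaged), and 0 above. Of 22 matrix genes FN1, fibronectin, read 7.73, 7.59, 7.64 and 9.03, the collagen COL4A1 read 4.95, 4.56, 4.64 and 6.23, and THBS1, thrombospondin, read 9.45, 10.05, 10.04 and 8.32. The matrix list's median of 0.41 was 0.11 when the probe sets of a gene were averaged, and 0 of its members were then counted. Of 18 glycolysis genes ENO1 (10.45, 10.49, 10.48, then 8.48), ALDOA and PKM were counted below and 13 lay below the range. Of 20 cytosolic ribosomal protein genes 6 lay above the earlier range, 6 below and 8 inside, with 0 counted and a median of 0.02. Beside the lists of this paragraph, 30.0% of all genes lay above the range and 35.6% below it. Of all genes 1.34% were counted above and 1.21% below. The ribosomal list was not far from all genes.

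**Figure D3:**
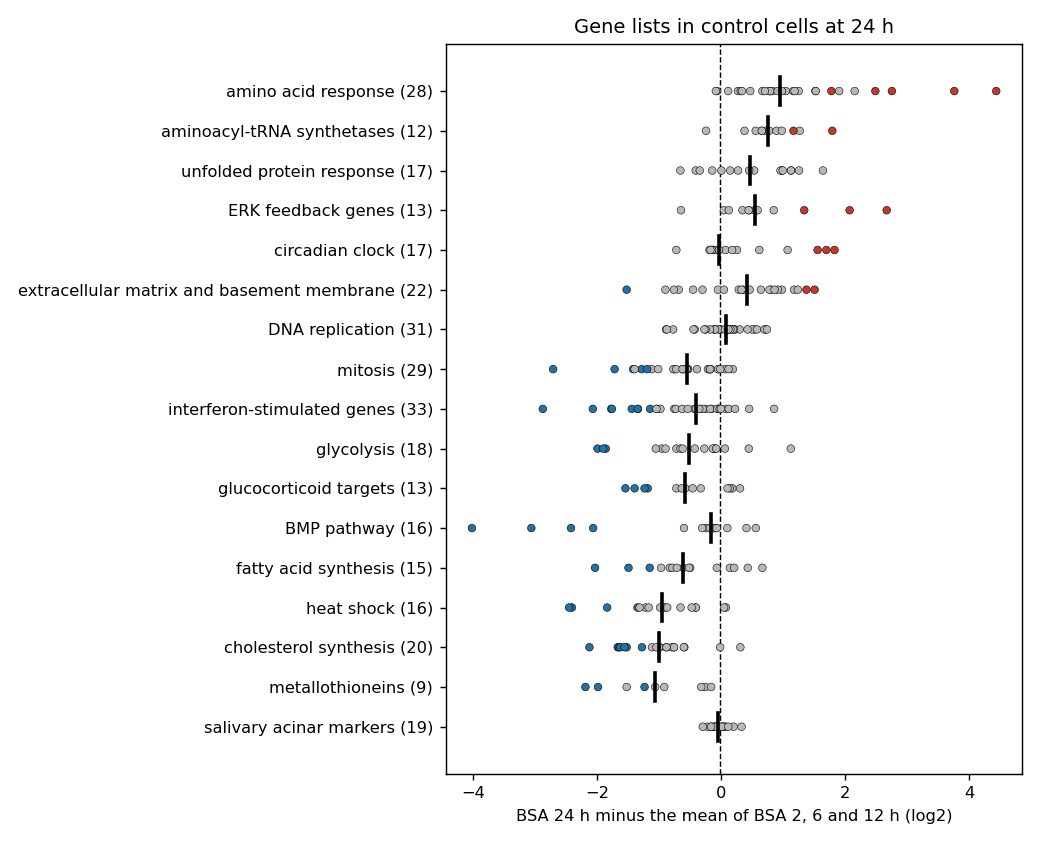
Difference between BSA at 24 h and the mean of the 3 earlier BSA arrays (x, log2) for every measured member of 17 gene lists (y, number measured in brackets). Points are genes, red and blue where counted above and below and grey otherwise, black bars are list medians and the dashed line is the median of all genes. The amino acid response list lies to the right (median 0.95) and the cholesterol, heat shock and metallothionein lists lie to the left (-0.99, -0.95 and -1.06).

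The path to the 24 h value varied among counted genes. 17 genes above and 17 below ran in the same direction through all 4 times, while 33 above and 42 below had run the opposite way from 2 to 12 h. The earlier array nearest to 24 h was the 2 h array for 105 genes above and 122 below, the 12 h array for 104 and 73, and the 6 h array for 36 and 26. On the same arrays, other probe sets gave a further reading. Of 176 genes counted above that had other probe sets, 163 had at least 1 of these above its own earlier range, 78 by at least 1 log2 unit. On the opposite side, 23 genes had another probe set outside its range, 0 by at least 1, and in 13 genes all others lay inside or opposite. Of 148 counted below with others, 144 had at least 1 below, 80 by at least 1 log2 unit. Another probe set lay on the opposite side in 8 genes, in 1 by at least 1, and all others lay inside or opposite in 4.

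The TNF-α arm shares no array with the BSA arm and gave the same contrast on other samples. Of the 245 genes counted above in BSA, 233 (95.1%) were also higher at 24 h than at the earlier times in TNF-α, where 66.1% of all genes were, and 158 (64.5%) lay at least 1 above the earlier TNF-α range, against 8.5% of all genes. Of the 221 counted below, 206 (93.2%) were lower in TNF-α, where 33.9% of all genes were, and 122 (55.2%) lay at least 1 below, against 5.76%. For 0 genes did the TNF-α array lie at least 1 outside on the opposite side. FAM24B read 7.84 in BSA and 7.44 in TNF-α at 24 h, and KCNJ16 read 3.25 and 3.93. The 24 h TNF-α array is the one with the wide GAPDH gap, and its part in these shares was not tested. Across genes the 2 arrays at 24 h correlated at r = 0.946, against 0.907 to 0.928 between the 24 h TNF-α array and the earlier BSA arrays. The 24 h BSA array correlated more closely with every earlier array, at 0.9615 to 0.9745 for TNF-α and 0.968 to 0.980 for BSA. KRT8, ENO1 and TKT were lower by 2.37, 1.99 and 2.43 in BSA and by 5.93, 5.16 and 5.36 in TNF-α.

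The shifts of the arms were also compared. This sets 1 array at 24 h against 1 other, of which the TNF-α array has the wide GAPDH gap, and its p-values measure only the spread between the earlier times. The part of that array's RNA in the differences was not tested. The limma fit called 984 genes with the higher shift in BSA (5.4%) and 1110 with the lower (6.09%), or 847 and 1664 after renewed quantile normalisation of the 8 arrays and 1183 and 1010 with probe sets averaged. With BSA minus TNF-α taken within each time it called 1826 and 2858. With the 4 means, among genes counted above 22 were called higher in BSA and 15 lower, among those counted below 33 and 17. GDF15 read 3.31, 2.92, 3.08 and 2.93 in TNF-α, so that its shift in BSA exceeded that in TNF-α by 4.61 (limma adjusted p = 0.00056). FGF21 also stayed level in TNF-α, at 4.09, 4.02, 3.77 and 3.97 (difference 1.77, limma adjusted p = 0.029). DDIT3 read 5.95 and TRIB3 8.0 at 24 h in TNF-α, and their differences of 2.35 and 2.61 did not pass (limma adjusted p = 0.075 and 0.055), though they did within each time (limma adjusted p = 0.0016 and 0.0017). CTH was high in both arms (8.91 and 8.26). The amino acid response list had a median of 0.15 in TNF-α and 0.95 in BSA. The cholesterol list was lower in both, with medians of -0.99 and -1.29, but INSIG1 read 9.96 at 24 h in TNF-α and differed (-1.75, limma adjusted p = 0.015).

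**Figure D4:**
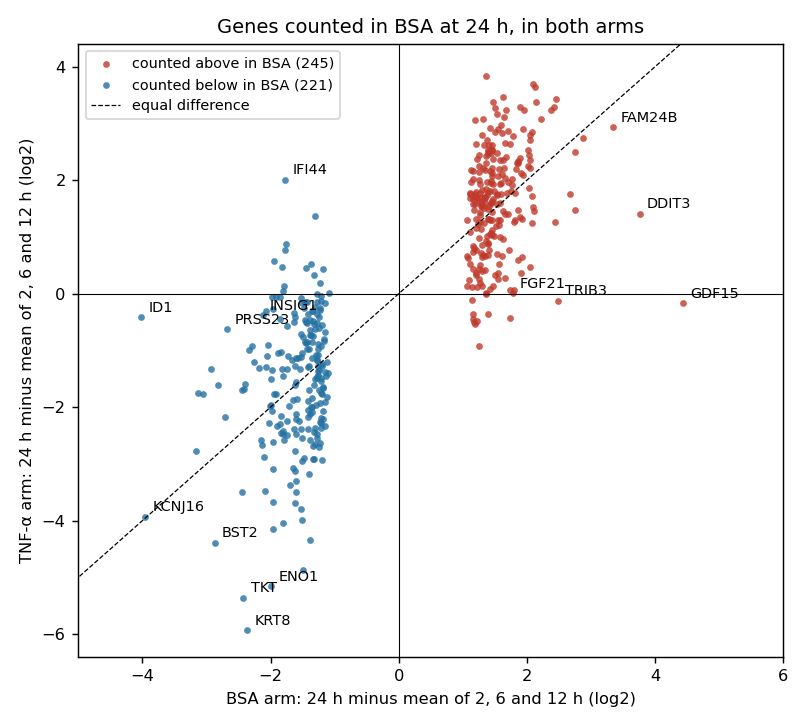
Difference between 24 h and the mean of 2, 6 and 12 h in the BSA arm (x, log2) and in the TNF-α arm (y, log2) for the 466 genes counted in BSA. The dashed line marks equal differences. Most points share a sign, GDF15 lies at 4.44 in BSA and near 0 in TNF-α (-0.17), and KRT8, TKT and ENO1 lie lower in TNF-α than in BSA.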

How the data were processed

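Values were deposited as log2 expression, 1 per probe set and array, made by the authors with RMA, per the submitters' processing notes. The version of RMA and its annotation were not given in the sources used here, nor whether all 8 arrays were normalised together. RMA equalises the arrays' distributions, so a shift shared by most genes would not be visible. Of 49386 probe sets, 45253 carried 1 gene symbol in GEO's platform annotation and were used; 1327 had several, 2713 none and 93 were array controls. Symbols were updated through Entrez identifiers (18180 matched a RefSeq table of GRCh38.p14, 62 did not). Each of 18239 genes was read by the probe set that was brightest on average over all 8 arrays. No filter or pseudocount was applied. The number of arrays limits the precision.

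Tests used limma 3.58.1 in R 4.3.3 (lmFit, eBayes, two-sided, Benjamini-Hochberg over all genes, adjusted p under 0.05). The fit to the BSA arrays, though not that between arms, was tested on simulated data with the same spread for every gene, unlike the real arrays. Tables and plots used Python 3.11.15 and pandas 2.3.3. The test between arms fitted 8 arrays with 4 means and 4 residual degrees of freedom; a fit on differences within each time was added after the data were seen. No separate cultures are named in the labels, so p-values measure only the spread between these arrays, which also holds change over time. The 57 lists held 992 symbols, of which 917 were measured, and 37 lists had a counted member. The genes counted, the lists and the genes named were chosen with earlier results of these data known. Named genes are the 15 farthest outside the range in each direction, up to 4 members of a list by size of difference, counted members of lists with 5 or fewer, genes next to the limit, and a set of stress, cycle, clock and lineage genes. CHAC1, AARS1, HSPA5, the markers STATH, HTN1, MUC7, COL3A1, LUM, DCN, COL1A1 and COL1A2, and the cholesterol and interferon list members outside this rule were named for their promoters or roles after their values were seen. Promoters came from RefSeq for 14492 genes; the other 3747 were not searched. Alternatives covered the probe set, the normalisation, a filter on low values, the distance, the reference arrays, left-out arrays and the limma settings.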

Additional observations from a re-analysis of the deposited data

Results flagged for a closer look

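The genes below are named genes that the limma test between the BSA and TNF-α arms over 8 arrays called. Values are the BSA shift minus the TNF-α shift on the log2 scale. The shares called over all genes are given above, and how many named genes were called is not read as a result. Each shift rests on 1 array at 24 h, and the TNF-α array has the GAPDH gap of 6.28.

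The difference was positive for GDF15 (4.61), KRT8 (3.56), AARS1 (3.43), ENO1 (3.16), TKT (2.93), JUN (2.77), KRT18 (2.39), BAX (1.78), FGF21 (1.77), ACTB (1.68), IGFBP2 (1.57), TP53BP1 (1.26) and AURKB (0.97). For GDF15, FGF21 and TP53BP1 the 24 h array lay above the earlier range in BSA and did not in TNF-α. AARS1 read 9.25 in BSA and 5.62 in TNF-α at 24 h, above and below its earlier ranges. JUN read 7.28 in BSA, within the earlier range, and 6.08 in TNF-α, below it. For the others the 24 h array lay below the earlier range in both arms, and the TNF-α array was lower.

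The difference was negative for PRSS23 (-2.05), JAG1 (-1.87), DCN (-1.75), INSIG1 (-1.75), NT5E (-1.65), TSLP (-1.64), ANKRD29 (-1.6), PSMG4 (-1.46), LUM (-1.23), VCX3A (-0.81) and FADS2 (-0.72). JAG1, TSLP and ANKRD29 lay above the earlier range in both arms and were higher in TNF-α. In BSA 1 of 6 probe sets of JAG1 and 1 of 3 of TSLP lay at least 1 above the range, and 1 of each lay below it. PRSS23, INSIG1, VCX3A and FADS2 lay below the earlier range in both arms and were lower in BSA. The fibroblast markers DCN and LUM read 7.10 and 6.87 in BSA and 8.80 and 8.48 in TNF-α at 24 h. NT5E read 3.91 in BSA and 5.58 in TNF-α, and PSMG4 7.11 and 8.53.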

How the results depend on the processing

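The counts depended on the distance and the reference more than on the scaling. Above and below, 1020 and 694 genes were counted at a distance of 1.5-fold and 36 and 49 at 3-fold, 480 and 372 against the 12 h array alone, and 537 and 387 against the mean of the 3 earlier arrays. Averaging probe sets gave 160 above, of which 134 were among the 245. Leaving out 1 earlier array gave 277 (without 6 h) to 383 (without 2 h) above and 242 to 300 below. Quantile normalising the 4 BSA arrays again gave 190 above and 259 below, so that 42.3% of counted genes lay above against 52.6% as deposited.

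The limma counts of higher and lower genes ran from 0 and 0 (without 2 h, or without 12 h) to 554 and 401 (without 6 h). They were 142 and 115 with probe sets averaged, 125 and 140 with dim genes left out (fewer genes tested, 9704), 622 and 492 over 8 arrays, 349 and 310 with trend and robust settings, and 0 and 0 with log2 hours as a covariate (1 residual degree of freedom, 1699 genes at an unadjusted p under 0.05). They were 2 and 0 with quantile normalisation again (3561 at an unadjusted p under 0.05) or median centring (3693). Over 8 arrays 18 of the 19 genes were called and with probe sets averaged all 19. For the other changes the cause was not tested. Between arms, 672 genes were lower with dim genes left out. In TNF-α, averaging probe sets gave 645 above and 99 of the 245. Any distance outside its range was reached by another probe set in 163 genes above and 144 below. The line in log2 hours through the earlier arrays was passed by at least 1 in 238 genes above and 216 below, and that in hours in 198 and 193, which the counting rule largely fixes. The side with more genes turned for the counted genes with probe sets averaged (160 and 162), renewed quantile normalisation or the 3-fold distance, for limma under every setting given above that made calls except with dim genes left out, and between arms with probe sets averaged or dim genes left out. No paired analysis by replicate was possible because the labels carry no replicate numbers; taken within each time, an alternative added after seeing the data, the shifts of the arms were called different in 1826 genes with the higher BSA shift and 2858 with the lower.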

Other observations

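Some counted genes that belong to none of the lists are given singly. They were picked from the counted genes after their values were seen, so their direction is fixed by that choice and says nothing of the groups they belong to.

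Among those above, LCA5, a ciliary protein gene, read 4.46, 4.15, 4.44 and 6.37 at 2, 6, 12 and 24 h in BSA, and the intraflagellar transport gene IFT172 read 4.73, 4.71, 4.89 and 6.23. XPOT, the tRNA exporter, read 9.70, 9.08, 9.45 and 10.75, and GTPBP2 read 7.58, 7.44, 7.47 and 9.06. NIBAN1 read 7.94, 7.66, 7.36 and 9.58. The host transcripts of small nucleolar RNAs ZFAS1 and SNHG12 were higher by 1.54 and 1.70 in BSA and by 1.75 and 1.41 in TNF-α.

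Among those below, the actin gene ACTB read 11.67, 11.76, 11.78 and 10.04, on the array where the gap between its 3′ and middle control probes was 1.88 against 1.01 to 1.19 earlier, and the part of that gap was not tested. CAV1, the caveolar coat gene, read 10.17, 10.09, 10.53 and 8.22, and TAGLN2, which binds actin, read 9.73, 10.14, 9.72 and 7.77.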
